A study of Mus musculus with 4 samples.

Results

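The nuclear genes of the respiratory chain and ATP synthase were compared between metanephric mesenchyme (MM) and intermediate mesoderm (IM), both taken from mouse embryos at 10.5 days post coitum. Members were all probes whose platform gene symbol began with Nduf, Uqcr, Cox4 to Cox8 or Atp5, or was Sdha, Sdhb, Sdhc, Sdhd, Cyc1 or Cycs. This gave 88 probes for 87 genes, out of 22702 probes and 15096 named genes. Complex I held 33 of them, its assembly factors (Ndufaf symbols) 7, complex II 4, complex III 9, cytochrome c 1, complex IV 16 and complex V 18.

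MM gives rise to the nephrons of the adult kidney, and IM is the earlier mesoderm that supplies kidney, gonad and their ducts. Both were dissected as primary tissue from embryos of both sexes, with no treatment named in the labels, and how many embryos went into each RNA is not known here. Amplified RNA of both tissues was hybridised together on each of 4 arrays. MM was channel 1 on arrays 1 and 2 (the first pair) and IM on arrays 3 and 4 (the second pair), where the labels write Intermediate Mesenchyme and exchange the second words of the names. Values are log2 ratios of MM over IM, so a negative value means lower in MM. The labels make this direction likely but do not state the dye of each channel. Nothing says that the arrays hold separate RNA extracts, so the p-values reflect nothing beyond array-to-array spread, and that spread may be technical.

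The respiratory chain sits in the inner mitochondrial membrane. Complex I takes electrons from NADH and complex II takes them from succinate, both pass them through ubiquinone to complex III, cytochrome c carries them to complex IV, where oxygen is reduced, and complex V makes ATP from the proton gradient that results. Most subunits are encoded in the nucleus, and in complexes I, III and IV a few catalytic or core subunits are joined by many small accessory ones. Nuclear respiratory factor 1 (NRF1) and the Ets factor GABPA are known regulators of many of these genes.

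Promoter stretches are shown for members called in both fits described below, because letters that resemble binding sites of these factors are shared by genes that went in opposite directions. RefSeq promoter windows (GRCm38.p6, from 250 bases before to 50 after each gene start) were matched for 69 of the 87 genes. The NRF1 letters (GCGCA, then any base, then GCGC) were searched on both strands and occurred in 15 of these 69 genes (21.7%) and in 5.19% of all 27025 genes with a window. The GABPA letters CCGGAAG, also searched on both strands, occurred in 17 (24.6%) and in 9.93% of all genes. The base composition of the windows was not matched. Capitals mark the matched letters. Matches that lie past the gene start are shown as the site with 10 bases on each side.
Uqcrc1 (NRF1 letters, higher in MM, chr9:108936643-108936672, plus strand): cttccttacaGCGCTTGCGCctcagactcc
Ndufaf5 (NRF1 letters, lower in MM, chr2:140170652-140170681, plus strand): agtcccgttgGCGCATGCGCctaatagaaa
Ndufa5 (NRF1 letters, lower in MM, chr6:24527687-24527736, minus strand): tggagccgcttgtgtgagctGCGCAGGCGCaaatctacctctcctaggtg
Ndufaf1 (GABPA letters, higher in MM, chr2:119662835-119662872, minus strand): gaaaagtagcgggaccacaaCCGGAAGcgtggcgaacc
Ndufaf8 (GABPA letters, lower in MM, chr11:120098906-120098933, plus strand): ggatgttcacgcgttcgactCCGGAAGa
Cox6b1 (GABPA letters, lower in MM, chr7:30626116-30626162, minus strand): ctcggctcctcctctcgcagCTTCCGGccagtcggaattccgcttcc
Atp5l (GABPA letters, lower in MM, chr9:44920928-44920974, minus strand): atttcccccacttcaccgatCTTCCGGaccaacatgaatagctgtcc

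Of the 15 genes with the NRF1 letters, 1 was called higher in MM, 8 lower, 4 did not pass and 2 were not tested. Of the 54 without them, 6 were higher, 28 lower, 11 did not pass and 9 were not tested. Of the 17 genes with the GABPA letters, 2 were higher, 9 lower, 3 did not pass and 3 were not tested. Of those without the GABPA letters, 5 were higher, 27 lower, 12 did not pass and 8 were not tested. A match is a run of letters and not a measured binding site.

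All 4 arrays had a value for 74 of the 88 member probes, and these were tested. Each probe was fitted with limma, with a term for channel orientation, and p-values were adjusted over all 14184 tested probes at a threshold of 0.05. Calls were common in that fit, with 61.9% of all probes past the threshold in either direction and 54 of the 74 members. Its residual comes only from pairs of arrays of the same orientation, so calls also made without the orientation term are given as called in both fits. Between orientations Pearson's r over the 13191 probes above the floor (-6.64, the lowest deposited value, a ratio of 0.01) was 0.113 to 0.274, and within an orientation it was 0.836 and 0.912. Markers of the tissues agreed in sign on all arrays for Six2, a nephron progenitor factor (2.35 to 3.86), and Gdnf, the growth factor of the ureteric bud (1.81 to 2.07), both higher in MM, and for Nr5a1 (-1.98 to -1.49), a gonad and adrenal factor, lower in MM. Pax2, a factor of both tissues, was at 0.088 (limma adjusted p = 0.362), Eya1 was above 0 on arrays 1 and 2 alone, and Wt1, listed for both tissues, was lower in MM (mean -1.57). Other markers went against their tissue in both fits: Meox1 of the MM list was lower in MM (-0.49), and Emx2 of the IM list was higher (0.69). Osr1, which is on both lists, was higher (0.44). Itga8 of the MM list read 3.67 and 4.16 on the first pair and was at the floor on the second pair. In all, 6 of 13 tested probes of the MM list were higher (46.2%) and 3 lower (23.1%). Of 11 in the IM list, 3 were higher (27.3%) and 5 lower (45.5%). Among all probes 23.8% were higher and 38.1% lower, so the IM list was near those shares.

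More members were lower than higher in MM, by modest amounts. Lower in MM were 44 of the 74 (59.5%), where 38.1% of all probes were lower. Higher were 10 (13.5%), where 23.8% of all probes were higher. The median log2 ratio of the members was -0.26, against -0.082 for all tested probes. By pair, the member medians were -0.13 on arrays 1 and 2 and -0.30 on arrays 3 and 4. Those of all tested probes were -0.081 and -0.040. Below 0 on all 4 arrays were 35 members (47.3%, and 28.4% of all probes), and above 0 on all 4 were 10 (13.5%, and 21.0% of all probes). In both fits 18 were lower (24.3%, and 14.4% of all probes) and 3 were higher (4.05%, and 13.6%). With each array centred on its median, the lower calls in both fits fell from 18 to 9. Without array 3, 19 of 78 members were lower and 2 higher with the orientation term, where 20.4% and 13.8% of all probes were. Without array 4 the counts were 25 and 5 of 75 (22.1% and 14.7% of all probes). Without array 1 they were 30 and 7 of 76 (27.8% and 19.0%), and without array 2 they were 34 and 8 of 74 (29.4% and 18.4%). In both fits the lower and higher calls were 1 and 0 without array 3 and 0 and 0 without array 4. They were 2 and 1 without array 1, and 4 and 2 without array 2. Shares of all probes called in both fits after centring or without an array are not given here.

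**Figure D1:**
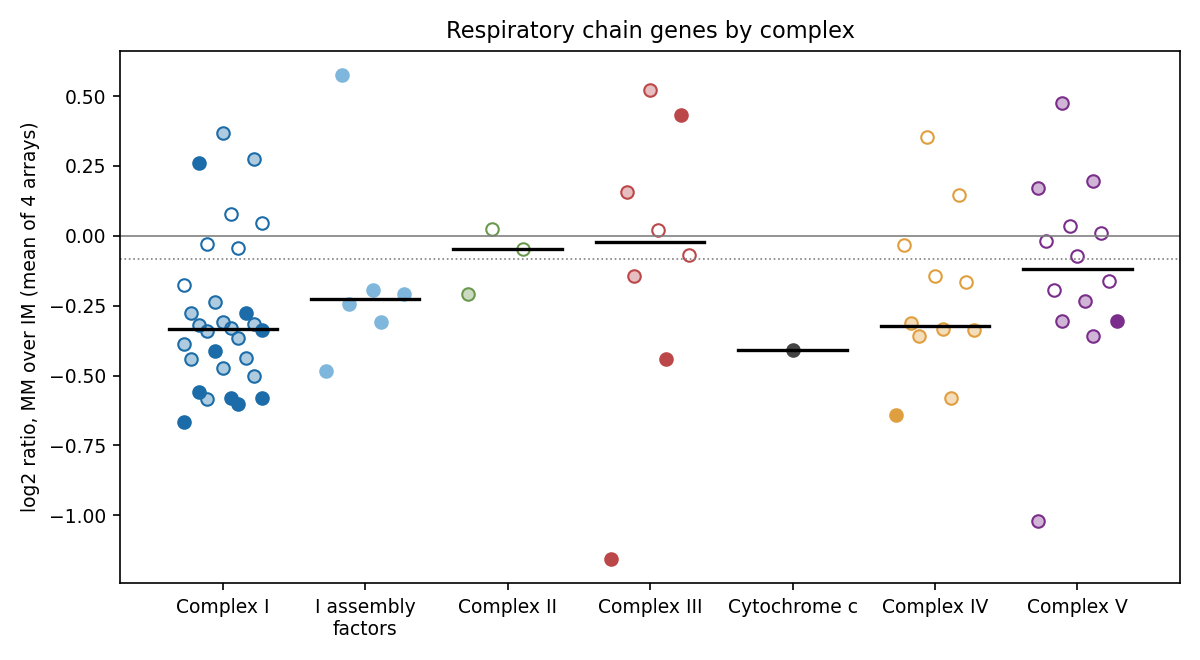
Mean log2 ratio (MM over IM, 4 arrays) of each tested member without a floor value, by complex. Filled points were called in both fits, pale points only with the orientation term and open points in neither; thick lines are medians over all tested probes of the group, with Cox4i2 included, and the dotted line is the median of all probes, -0.082. Complexes I and IV centre at -0.33 and -0.32, and complexes II and III at -0.047 and -0.023.

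Grouped by symbol, and so with Ndufa4 included, complex I held 22 of the 44 lower calls. Of its 30 tested probes, 22 were lower in MM (73.3%, and 38.1% of all probes), 3 were higher and 5 did not pass. In both fits 8 were lower (26.7%, and 14.4% of all probes) and 1 was higher. Its median was -0.33. The array medians were -0.21 and -0.10 on the first pair and -0.56 and -0.56 on the second pair. For all tested probes they were -0.088 and -0.071 on the first pair and -0.041 and -0.044 on the second. The complex thus lay nearer to all probes on the first pair, most of all on array 2, and further below them on the second pair. The lower calls of the complex came to 12 without array 3, 13 without array 4, 14 without array 1 and 17 without array 2, where 20.4%, 22.1%, 27.8% and 29.4% of all probes were lower.

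The small accessory subunits and the core subunits of complex I had different values, a division made after the values were known. Of 25 tested accessory probes 21 were lower (84.0%, and 38.1% of all probes) and 2 were higher (8.0%, and 23.8%), with a median of -0.37. In both fits 7 were lower (28.0%, and 14.4% of all probes) and 1 was higher. Of 5 tested core subunits, those conserved from the bacterial enzyme, 1 was lower and 1 was higher (median -0.03, which turned to 0.022 with arrays centred). In both fits 1 core subunit was lower (20.0%) and 0 were higher, so the 2 groups were closer in those calls. This difference was not tested.

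Ndufb3, a small subunit of the membrane arm, read -0.64 and -0.50 on the first pair and -0.63 and -0.89 on the second pair. It was the lowest of the complex, 1.59-fold lower in MM (-0.66 ± 0.17, SD, n = 4, limma adjusted p = 0.00452), and lower on 4 of 4 arrays. Ndufa5, a subunit of the arm that reaches into the matrix, read -0.47 and -0.42 on the former pair and -0.75 and -0.76 on the latter. All its values were below 0, with a mean of -0.60 ± 0.18 (adjusted p = 0.00111). Ndufa1, a membrane subunit encoded on the X chromosome, read -0.60, -0.41, -0.74 and -0.57 (mean -0.58 ± 0.13, adjusted p = 0.00449). Its orientations overlapped.

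Ndufa2, of the module that oxidises NADH, read -0.51, -0.22, -0.89 and -0.70 (-0.58 ± 0.29) and was lower in both fits, as was Ndufb5 of the membrane arm with -0.51, -0.39, -0.47 and -0.87 (-0.56 ± 0.21). Ndufc1 (-0.41 ± 0.19) was also lower in both fits. So was Ndufa4 (-0.34 ± 0.07), which despite its symbol is a subunit of complex IV. With it counted there, the medians of complexes I and IV were both -0.33. All counts of calls for these complexes keep it with complex I. Ndufa2, Ndufb5, Ndufc1 and Ndufa4 were below 0 on 4 of 4 arrays.

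All 9 Ndufb probes, subunits of the distal membrane arm, were lower in MM in the fit with the orientation term, where 38.1% of all probes were. Their means ran from -0.66 to -0.28 with a median of -0.44. The count was 5 of 9 without array 3 or without array 4 and 7 of 9 without array 1 or without array 2. Only Ndufb3 and Ndufb5 were lower in both fits. On arrays 1 and 2 several of the others lay near 0: Ndufb10 read -0.0087 and 0.047 there and -0.56 and -0.59 on arrays 3 and 4, and Ndufb8 read -0.091 and 0.043 against -0.60 and -0.62. Ndufb2 had the opposite pattern, at -0.76 and -0.84 on arrays 1 and 2 and -0.0072 and -0.14 on the others. The size of these shifts differed between the orientations, and for Ndufb10 the mean of arrays 1 and 2 was on the other side of 0 (0.019).

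Among the Ndufa probes 8 of 10 tested were lower (80.0%, and 38.1% of all probes) and 1 was higher. In both fits 4 were lower (40.0%, and 14.4% of all probes). Ndufa6 (-0.58 ± 0.40), Ndufa12 (-0.47 ± 0.25) and Ndufa13 (-0.32 ± 0.31) were lower only with the orientation term. Ndufa9, which holds a nucleotide at the junction of the arms, did not pass (0.044 ± 0.09, adjusted p = 0.445). Ndufa10, a large accessory subunit related to nucleoside kinases, was higher on 4 of 4 arrays with 0.46, 0.72, 0.18 and 0.11 (0.37 ± 0.28, adjusted p = 0.0137), a call not made without the orientation term (adjusted p = 0.117).

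The core subunits lay closer to 0. Ndufv1, which holds the flavin and the NADH site, read 0.38 and 0.38 on the first pair and 0.21 and 0.13 on the second pair, and was higher in MM with the orientation term (0.27 ± 0.13, adjusted p = 0.00569) and at adjusted p = 0.0541 without it. Ndufs7, which carries the iron-sulfur cluster next to the ubiquinone site, was lower in both fits (-0.28 ± 0.07). Ndufs1 (0.077 ± 0.07, adjusted p = 0.124), Ndufs3 (-0.03 ± 0.22, adjusted p = 0.613) and Ndufv2 (-0.043 ± 0.12, adjusted p = 0.573) did not pass. Ndufv3, an accessory partner of Ndufv1, read 0.13, 0.28, 0.29 and 0.35 and was the only complex I subunit higher in both fits (0.26 ± 0.09). The probe named for the pseudogene Ndufs5-ps was at -0.33 ± 0.19 and cannot be told apart here from the parent gene.

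**Figure D2:**
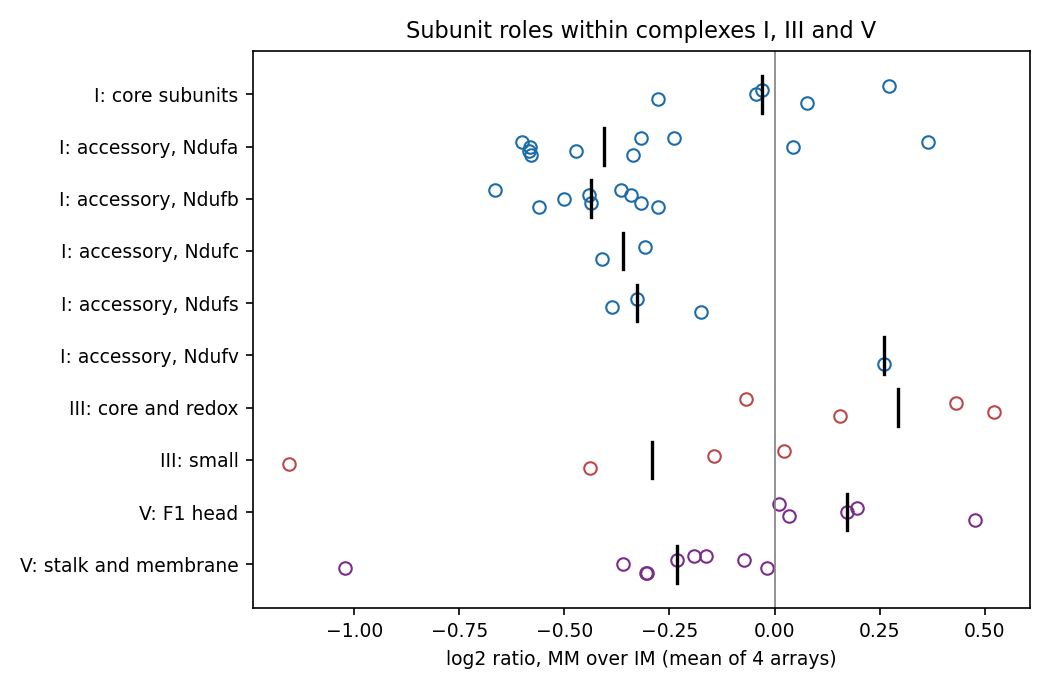
Mean log2 ratio (MM over IM, 4 arrays) of every tested probe of complexes I, III and V, grouped by subunit role; thick lines are group medians. The Ndufb probes all lie between -0.66 and -0.28, while the F1 part of complex V (labelled F1 head) and the core and redox subunits of complex III have medians of 0.17 and 0.29.

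The assembly factors of complex I, which build the enzyme without staying in it, were called in both fits for all 6 tested. In MM 5 were lower (83.3%, and 14.4% of all probes) and 1 was higher (16.7%, and 13.6%). Ndufaf1, which acts on the membrane arm, read 0.47, 0.57, 0.68 and 0.58. It was 1.49-fold higher in MM (0.58 ± 0.09, adjusted p = 0.00218), above 0 on 4 of 4 arrays, and the highest mean of all tested members. Ndufaf2, a relative of Ndufa12, read -0.52, -0.47, -0.43 and -0.52 (-0.48 ± 0.04, adjusted p = 0.00217). The others lower in MM were Ndufaf5, which modifies Ndufs7 (-0.31 ± 0.06), its partner Ndufaf8 (-0.24 ± 0.08), Ndufaf7 (-0.21 ± 0.06) and Ndufaf6 (-0.20 ± 0.02). The orientations gave these factors like medians, -0.25 on arrays 1 and 2 and -0.22 on arrays 3 and 4. The lower calls with the orientation term came to 1 of 6 without array 3 and 2 of 6 without array 4. Ndufaf3 had no value on array 1 and read 0.77, 1.92 and 1.38 on the others.

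Complex II, the succinate dehydrogenase that also serves the citric acid cycle, gave 1 call among 3 tested. Sdhb, its iron-sulfur subunit, read -0.31 and -0.28 on the first pair and -0.13 and -0.12 on the second pair. It was lower in MM with the orientation term (-0.21 ± 0.10, adjusted p = 0.00789), though not without it (adjusted p = 0.0691). The membrane anchors Sdhc (0.023 ± 0.07, adjusted p = 0.517) and Sdhd (-0.047 ± 0.21, adjusted p = 0.224) did not pass, and Sdhd was above 0 on arrays 1 and 2 and at -0.23 on both others. Sdha, the flavin subunit, had values on arrays 1 and 3 alone, 0.17 and 1.52.

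Complex III had members at both ends. Of 8 tested, 3 were higher (37.5%, and 23.8% of all probes), 3 lower (37.5%, and 38.1%) and 2 did not pass. The median of -0.023 turned to 0.029 with arrays centred. Uqcrb, a small subunit near the ubiquinone site, read -1.50 and -1.54 on the first pair and -0.69 and -0.89 on the second pair. It was 2.23-fold lower in MM (-1.16 ± 0.43, adjusted p = 0.000994, and 0.0216 without the orientation term), the lowest mean among members without a floor value. Every value was below 0, and the orientations did not overlap.

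Uqcrc1, a large core protein of the complex, read 0.44, 0.48, 0.39 and 0.42. It was 1.35-fold higher in MM in both fits (0.43 ± 0.04, adjusted p = 0.00199). Its partner Uqcrc2 read 0.71 and 0.93 on the first pair and 0.30 and 0.16 on the second pair (0.52 ± 0.36, adjusted p = 0.0057, and 0.0887 without the orientation term). Cyc1, the cytochrome that hands electrons to cytochrome c, was higher by 0.16 ± 0.04 (adjusted p = 0.0146, and 0.0675 without the term).

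The Rieske iron-sulfur protein Uqcrfs1 did not pass (-0.068 ± 0.22, adjusted p = 0.203), and neither did the small subunit Uqcrq, at 0.64 and 0.32 on the first pair and -0.57 and -0.30 on the second pair. Among the other small subunits, Uqcr10 was lower in both fits (-0.44 ± 0.21) and Uqcr11 only with the orientation term (-0.14 ± 0.17). The hinge protein Uqcrh had no value on array 3 and read -0.039, -0.048 and -0.45 on the others. Grouped by role after the values were known, 3 of 4 core and redox subunits were higher and 0 lower with the orientation term (1 of 4 higher in both fits). Of 4 tested small subunits, 3 were lower and 0 higher with the term (2 lower in both fits). Of all probes, 23.8% were higher and 38.1% lower with the term. Without array 3 those counts were 1 higher and, of 5 small subunits then tested, 1 lower, and without array 4 they were 2 higher and 1 lower.

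Cytochrome c itself, encoded in somatic cells by Cycs, varied little between arrays. It read -0.37, -0.39, -0.40 and -0.47 and was 1.33-fold lower in MM in both fits (-0.41 ± 0.04, adjusted p = 0.0024). It was thus on the opposite side of 0 from Cyc1, its electron donor in complex III.

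**Figure D3:**
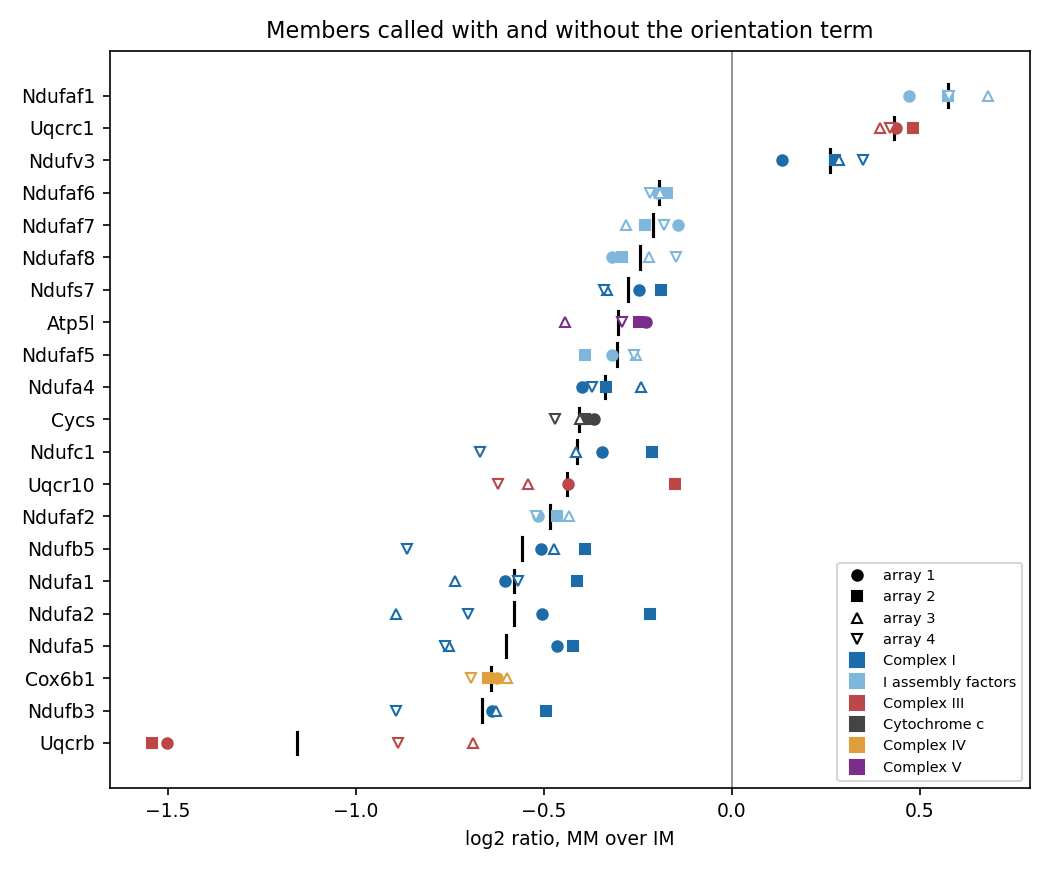
Log2 ratio (MM over IM) on each array for the 21 members called both with and without the orientation term; thick bars are means. The 3 higher members, Ndufaf1, Uqcrc1 and Ndufv3, and the 18 lower ones keep the same side of 0 on all 4 arrays.

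Complex IV, cytochrome c oxidase, had 7 of 12 tested probes lower in MM (58.3%, and 38.1% of all probes) and 0 higher, with 1 of the 7 at the floor. In both fits 1 of 12 was lower (8.33%, and 14.4% of all probes). This count leaves out Ndufa4, a complex IV subunit that was also lower in both fits and is counted with complex I. Its median was -0.32, and -0.31 with the floor probe left out. In limma at an unadjusted p under 0.05 the counts of the complex were 8 lower and 0 higher, where 5863 of all 14184 probes were lower. Without array 3 the lower calls of the complex were 4 of 13 (20.4% of all probes), and without array 4 they were 6 of 12 (22.1%). Without array 1 they were 4 of 12 (27.8% of all probes), and without array 2 they were 4 of 12 (29.4%), with 1 higher. Cox6b1, a subunit facing the intermembrane space, read -0.63, -0.65, -0.60 and -0.69. It was 1.56-fold lower (-0.64 ± 0.04, adjusted p = 0.00129), was the only probe with a Cox symbol among the members called in both fits, and had nearly equal values in both orientations.

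The remaining lower calls were Cox7a2 (-0.58 ± 0.44), Cox5b (-0.36 ± 0.22), Cox6a1 (-0.34 ± 0.24), Cox7b2 (-0.33 ± 0.42) and Cox8c (-0.31 ± 0.27), made only with the orientation term. Cox7a2 read -1.02 and -0.89 on the first pair and -0.15 and -0.26 on the second pair, so its size differed between orientations while its sign did not. Cox7b2 and Cox8c are known as testis isoforms. Cox7c (-0.15 ± 0.11, adjusted p = 0.0502), Cox6c (-0.16 ± 0.39, adjusted p = 0.472) and Cox4i1, the ubiquitous form of subunit 4 (-0.032 ± 0.30, adjusted p = 0.819), did not pass. Cox4i2, the form known from lung, read -0.21 and -0.16 on the first pair and on the second pair was at the floor, so its call is no measured fold.

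The heart and muscle isoforms of cytochrome c oxidase gave no call, and 1 of the 3 was tested. Cox8b read 0.46, 0.13, -0.019 and 0.016 (adjusted p = 0.161). Cox6a2 read 0.66 and 0.36 and Cox7a1 read 0.087 and -0.025 on arrays 1 and 2, with no value on the others. Of 24 tested probes of the muscle and heart list, 20 were lower in MM (83.3%, and 38.1% of all probes), 6 of them at the floor. Higher were 3 (12.5%, and 23.8% of all probes). In both fits 9 were lower (37.5%, and 14.4% of all probes) and 1 was higher. Of those at the floor on the second pair, Tnnc2 read 1.69 and 2.52 on the first pair and Tnni3 read 0.16 and -0.72. The array medians of the list ran from -1.41 to -0.21. Over all probes, 855 of the 5408 lower calls were at the floor. With floor probes left out, 35.5% of all probes were lower and 26.1% higher. In such bulk tissue, fewer cells of a type and less RNA per cell cannot be told apart. Ratios give no level for either tissue, and the part of muscle cells in the lower respiratory chain ratios was not tested. Of the other cell type lists, endoderm and liver had 11 of 15 tested probes higher in MM (73.3%) and 2 lower (13.3%). Neural had 3 of 13 higher (23.1%) and 9 lower (69.2%), and leukocyte 0 of 5 higher and 4 lower (80.0%). Endothelium had 4 of 14 higher (28.6%) and 6 lower (42.9%), and erythroid 3 of 12 higher (25.0%) and 5 lower (41.7%). Their part was not tested either. The liver forms Cox6a1 and Cox7a2 were lower, as above. Cox8a, the ubiquitous form of subunit 8, read 1.29 and 0.56 on arrays 1 and 2 and -0.75 on array 4. Cox7a2l, which binds complexes III and IV together, was above 0 on 4 of 4 arrays without passing (0.35 ± 0.32, adjusted p = 0.129). Cox5a read 3.00 and 2.08 on arrays 1 and 2 and had no value on the others.

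Complex V, the ATP synthase, had calls in both directions at shares near those of all probes. Of 14 tested probes 3 were higher (21.4%, and 23.8% of all probes), 5 were lower (35.7%, and 38.1%) and 6 did not pass (median -0.12), and in both fits 1 was lower and 0 higher. The probes of the F1 part, which comprises the ATP-making head and the central stalk, had means of 0.012 to 0.48. With the orientation term 3 of 5 were higher (60.0%, and 23.8% of all probes) and 0 lower, and in both fits 0 were called. Those of the peripheral stalk and the membrane part had means of -1.02 to -0.018, with 5 of 9 lower (55.6%, and 38.1% of all probes) and 0 higher. In both fits 1 of these 9 was lower (11.1%, and 14.4% of all probes). In limma at an unadjusted p under 0.05 the F1 part had 3 higher and 0 lower, and the remainder 0 higher and 6 lower. This grouping was made after the values were known and was not tested. The 3 calls of the F1 part fell to 0 without array 1, without array 2 or without array 3 and to 1 without array 4. The 5 of the remainder came to 3 of 9 without array 1, 4 of 9 without array 2, 0 of 10 without array 3 and 2 of 10 without array 4.

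Atp5a1, the alpha subunit of the head, read 0.59, 0.76, 0.37 and 0.18 and was above 0 on 4 of 4 arrays (0.48 ± 0.25, adjusted p = 0.00649, and 0.0535 without the orientation term). The catalytic beta subunit Atp5b read 0.062 and -0.13 on the first pair and 0.38 and 0.47 on the second pair, and Atp5e was at 0.17 ± 0.10. The central stalk subunit Atp5c1 (0.035 ± 0.26, adjusted p = 0.379) and Atp5d (0.012 ± 0.11, adjusted p = 0.77) did not pass.

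Atp5l, subunit g of the membrane part, read -0.23, -0.25, -0.44 and -0.29 and was lower in both fits (-0.30 ± 0.10). Atp5g2, a gene for the proton-carrying subunit c, was lower only with the orientation term (-0.30 ± 0.35), and its copy Atp5g1 read -1.06 and 0.98 on arrays 1 and 2, was at the floor on array 4 and had no value on array 3. These copies encode the same mature protein, and probe specificity was not checked here. Atp5pb (adjusted p = 0.127), Atp5j2 (adjusted p = 0.058), Atp5h (adjusted p = 0.688) and Atp5o (adjusted p = 0.853) did not pass. Atp5j, coupling factor 6, had the widest spread of members above the floor, at -3.60 and -2.20 on the first pair and 1.01 and 0.71 on the second pair, and its call as lower (adjusted p = 0.0498) rests on the former pair.

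Several probes of complex V belong together or lack values. Atp5md was the only gene with more than 1 probe: one was lower (-0.23 ± 0.13), and the other read 1.96 and 1.69 on arrays 1 and 2 alone. The probe named for the pseudogene Atp5k-ps1 read -0.0087 and 0.11 on arrays 1 and 2 and -0.77 on each of the others, and Atp5k itself read -0.19, -0.40 and 0.94 with no value on array 4. Atp5mpl had 0.18 and -0.30 on arrays 1 and 2 alone. In complex I the probes without 4 values were Ndufa3 (0.19 and 0.15 on arrays 1 and 3), Ndufa7 (0.036, 1.56 and 0.56 on arrays 2 to 4) and Ndufab1, the mitochondrial acyl carrier protein (-1.17, -0.44 and 0.86 on arrays 1, 2 and 4). In all, 7 members had 3 values and 7 had 2.

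The channel orientation moved many members. Its term passed the threshold for 29 of 74 (39.2%, and 44.6% of all probes). The mean ratio was lower on arrays 3 and 4 than on arrays 1 and 2 in 54 of 74 members, in 26 of 30 complex I probes, and in 7480 of all 14184 probes. Opposite signs in the orientations, with both arrays of each agreeing, were seen in 10 of 74 members (13.5%) and in 33.2% of all probes.

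**Figure D4:**
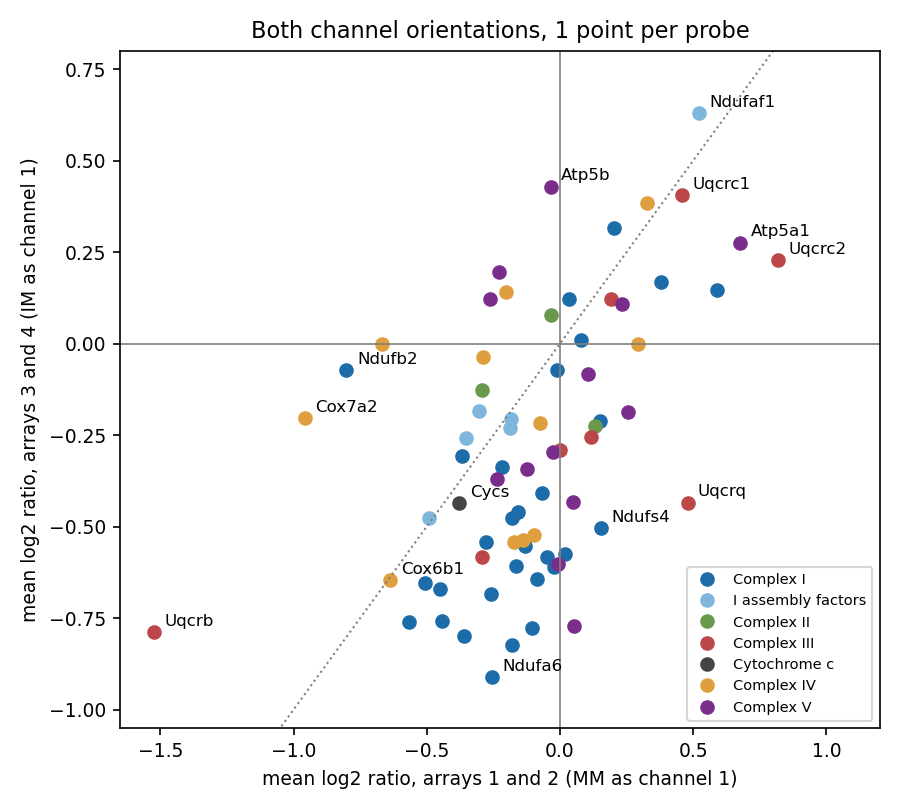
Mean log2 ratio (MM over IM) on arrays 1 and 2 against that on arrays 3 and 4, 1 point per tested member without a floor value, coloured by complex; the dotted line marks equal values. Atp5j, at -2.90 and 0.86, lies outside the axes and is left out. Most complex I points lie below the dotted line, and Cox6b1, Cycs and Uqcrc1 lie close to it.

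Other mitochondrial lists are given beside the shares of all probes, 23.8% higher and 38.1% lower, and no difference from the respiratory chain was tested. Of 19 tested probes of the citric acid cycle and pyruvate list, 12 were called higher in MM (63.2%) and 5 lower (26.3%), of which 8 and 3 held in both fits, and the median was 0.22. Idh3a, a subunit of isocitrate dehydrogenase, was higher by 1.57 ± 0.06, and Dld, the lipoamide dehydrogenase shared by several dehydrogenases, by 1.11 ± 0.06. Mpc1, of the mitochondrial pyruvate carrier, was lower (-0.56 ± 0.06).

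Of 35 tested assembly factors beyond the Ndufaf genes, 13 were called higher (37.1%) and 15 lower (42.9%), of which 8 and 12 held in both fits, and the median was -0.11. Hccs, which attaches haem to cytochrome c and Cyc1, was higher (1.44 ± 0.54), as was the copper chaperone Sco1 of complex IV (1.33 ± 0.21), while Cmc1 (-0.68 ± 0.10) and Cox16 (-0.62 ± 0.07), also of complex IV assembly, were lower. Of 19 tested carriers and porins 7 were higher and 7 lower (36.8% each), 1 of the latter at the floor (median 0.045). The porins Vdac1 (0.58 ± 0.13) and Vdac3 (0.56 ± 0.15) were higher, and the ATP synthase inhibitor Atpif1 was lower (-0.68 ± 0.23). No value for a gene of the mitochondrial genome was analysed here.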

How the data were processed

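Each deposited value is a log2 ratio for a probe on an array. According to the labels, the authors read the spots in Imagene 5.5, exchanged the channels of arrays 3 and 4, raised control values below 10 to 10, and applied lowess with 20% of points per local fit. How background and flagged spots were treated is not known here. The lowest deposited log2 value, -6.64, was taken as a floor. No spot intensities were used, and having 4 arrays limits the precision.

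Of 22702 probes, 17252 had 1 gene symbol, 156 several and 5294 none. The 14184 probes with a value on every array were fitted with limma 3.58.1 in R 4.3.3, with and without an orientation term, and adjusted by Benjamini-Hochberg (threshold 0.05); the fit was tested on simulated data. Errors are SDs over 4 arrays. Alternatives were array weights, centring, 3 or more values, floor probes left out, gene averages, single orientations and each array left out.

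Members, lists and tests were chosen with earlier results of these data known. Named were Sdh genes, Cyc1, Cycs, isoforms, the largest changes called in both fits per complex, and members with several probes, floor values, missing values or a large orientation difference; the remaining members are given for completeness. Complex names came from the symbols, and RefSeq (GRCm38.p6) matched 87 of 88 member probes.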

Additional observations from a re-analysis of the deposited data

Results flagged for a closer look

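On 6 members both arrays of one orientation had the opposite sign to both arrays of the other, and the orientation term passed the threshold in limma. The mean of arrays 1 and 2 minus that of arrays 3 and 4 was 0.66 for Ndufs4, 0.36 for Sdhd, 0.37 for Uqcrfs1, 0.91 for Uqcrq, 0.44 for Atp5c1 and -3.76 for Atp5j.

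Atp5h, subunit d of the ATP synthase stalk, read 0.47 on array 4 and -0.27 to -0.23 on the others. The gap was past Dixon's critical value for 4 values, the only such case among the 74 members with 4 values. That value assumes 4 unrelated readings, and these arrays form pairs by orientation, so it gives no chance rate here.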

How the results depend on the processing

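In limma, counts of higher and lower members were 3 and 18 without the orientation term. They were 5 and 34 of 76 on arrays 3 and 4 alone, where 23.6% and 29.8% of all probes were called. Counts were 0 and 0 on arrays 1 and 2 alone (9 and 18 at an unadjusted p under 0.05) and with each orientation averaged to 1 value (1 and 3 unadjusted). In these last 2 settings 0.0% of all probes were called. With orientations averaged, 5.41% of members and 10.8% of all probes had an unadjusted p under 0.05. Leaving out each array gave 2 to 8 higher and 19 to 34 lower, where 13.8% to 19.0% of all probes were higher and 20.4% to 29.4% lower. Called in both fits were 5 higher with floor probes left out, and 9 lower with arrays centred or 11 with 3 or more values. Leaving out each array gave 0 to 2 higher and 0 to 4 lower in both fits; the zeros, without array 3 or 4, had 4 and 6 higher, and without array 4 had 17 lower, at unadjusted p under 0.05 in both.

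Each group median was set against the SD of its own 4 array medians, 0.24 for complex I and 0.071 for complex IV. The complex I SD includes the difference between orientations, so runs on 1 orientation could hardly exceed it. The complex I median ran from -0.54 (arrays 3 and 4 alone) to -0.16 (arrays 1 and 2 alone), shifts smaller than that SD. Medians that moved further were -0.17 for the complex I assembly factors with arrays centred, -0.13 for complex II and -0.27 for complex III on arrays 3 and 4 alone, -0.12 on arrays 1 and 2 and -0.21 on arrays 3 and 4 for complex IV (-0.35 to -0.25 leaving out each array), and -0.031 for complex V on arrays 1 and 2. Signs of called members turned for Ndufb10 (0.019), Uqcr11 (0.0013), Atp5b (-0.035) and Atp5k-ps1 (0.053) on arrays 1 and 2, for Atp5j (0.86) on arrays 3 and 4, and for Atp5md (0.25) with its probes averaged. The cause was not tested, except that the added Atp5md probe has values on arrays 1 and 2 alone. The labels give no shared replicate numbers between orientations.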

Other observations

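Lists of genes that maintain mitochondria are given beside the shares of all probes, 23.8% higher and 38.1% lower, and no difference from the respiratory chain was tested. Of 10 tested probes of biogenesis regulators, 4 were higher in MM (40.0%) and 2 lower (20.0%), with a median of 0.22. Yy1, a factor known at respiratory gene promoters, was higher (1.23 ± 0.29), as was Tfb2m, a transcription factor of the mitochondrial genome (0.92 ± 0.19), and Ssbp1, which binds single-stranded mitochondrial DNA, was lower (-0.85 ± 0.37). Of 26 tested probes for import, cristae and protein quality control, 10 were higher (38.5%) and 4 lower (15.4%), with a median of 0.037, led by the import receptor Tomm70a (1.54 ± 0.07), the protease Lonp1 (1.05 ± 0.24) and the chaperonin Hspd1 (0.72 ± 0.14).

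Of 69 tested probes of mitochondrial ribosomal proteins, which translate the mitochondrial part of the chain, 14 were higher in MM (20.3%) and 34 lower (49.3%), with 8 and 15 in both fits, with a median of -0.14. Mrpl9 (0.59 ± 0.06) was higher and Mrpl42 (-0.67 ± 0.12) and Mrpl27 (-0.61 ± 0.04) were lower in both fits. Of 37 tested probes with proteasome symbols, 12 were higher (32.4%) and 14 lower (37.8%), with a median of -0.072.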
